A study of Mus musculus with 27 samples.

Results

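The genes described here encode 10 acute phase proteins, which are plasma and secreted proteins whose output by the liver changes in inflammation. They are the serum amyloid A genes Saa1, Saa2, Saa3 and Saa4, the orosomucoid genes Orm1, Orm2 and Orm3, the lipocalin gene Lcn2, the haptoglobin gene Hp and the serum amyloid P component gene Apcs. The genes were chosen by name, with earlier results of these data known, and all 10 were found among the 43346 genes of the table. RNA was sequenced from liver hepatocytes of females aged 12 weeks, with 3 libraries for each of 9 inbred strains, and no treatment is named in the labels. The wild-derived strains were WSB/EiJ, CAST/EiJ and PWK/PhJ, and the classical laboratory strains were A/J, C57BL/6J, DBA/2J, 129S1/SvImJ, NZO/HlLtJ and NOD/ShiLtJ. Each library is a biological replicate per its title, and the labels name no introduced allele. The study asked how genetic variation between strains relates to chromatin and to expression, and the expression of these genes was compared across the strains and among the libraries of each strain.

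In the acute phase response, cytokines released at a site of injury or infection, chiefly interleukin 6 and interleukin 1, act on receptors of the hepatocyte. The transcription factors STAT3, NF-kappaB and members of the C/EBP family then raise the transcription of positive acute phase genes, and the transcripts of negative acute phase proteins such as albumin and transthyretin decline. In mice, serum amyloid A and serum amyloid P component are the classical strong responders, while C-reactive protein changes little. Unstimulated liver still makes haptoglobin, orosomucoid and Saa4 constitutively.

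The serum amyloid A genes lie together on chromosome 7 of the mouse genome (build GRCm38, GENCODE M21), with Saa3 at chr7:46711998-46715700, Saa4 at chr7:46727998-46732603, Saa1 at chr7:46740497-46742980 on the minus strand and Saa2 at chr7:46751790-46754313 on the plus strand. The orosomucoid genes lie side by side on the plus strand of chromosome 4, with Orm1 at chr4:63344560-63348163, Orm3 at chr4:63356162-63359511 and Orm2 at chr4:63362449-63365878. Both clusters hold close copies. The coding sequences of Saa1 and Saa2 were 95.1% identical over 369 aligned bases, and those of Orm1 and Orm2 were 89.9% identical over 624. Orm2 and Orm3 were 88.0% identical in coding sequence, whereas Saa1 and Saa4 were 64.6% identical. Lcn2 lies at chr2:32384633-32388252, Hp at chr8:109575128-109579172 and Apcs at chr1:172893961-172895041, all on the minus strand.

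The likeness of the close copies extended upstream of the transcription start. The stretches below run from 250 to 51 bases before the start given by RefSeq (build GRCm38.p6) and are shown for both pairs of close copies and for Apcs, the gene with the most called pairs of strains. The Saa1 stretch is chr7:46743031-46743230 on the minus strand and the Saa2 stretch is chr7:46751583-46751782 on the plus strand. The Orm2 stretch is chr4:63362199-63362398 and the Orm3 stretch is chr4:63355908-63356107, both on the plus strand, and the Apcs stretch is chr1:172895105-172895304 on the minus strand. Capitals mark a match to TTGCNNAA, a form of the site bound by C/EBP factors, in the Saa and Orm genes, and to TTCNNNGAA, a form of the STAT site, in Apcs.
Saa1: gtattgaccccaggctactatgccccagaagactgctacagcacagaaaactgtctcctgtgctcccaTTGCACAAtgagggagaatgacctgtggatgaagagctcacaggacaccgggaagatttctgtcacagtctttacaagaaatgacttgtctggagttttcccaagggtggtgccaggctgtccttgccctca
Saa2: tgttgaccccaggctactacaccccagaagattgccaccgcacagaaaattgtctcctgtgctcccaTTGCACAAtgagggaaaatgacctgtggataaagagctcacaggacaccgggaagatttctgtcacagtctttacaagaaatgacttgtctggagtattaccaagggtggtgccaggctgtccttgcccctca
Orm2: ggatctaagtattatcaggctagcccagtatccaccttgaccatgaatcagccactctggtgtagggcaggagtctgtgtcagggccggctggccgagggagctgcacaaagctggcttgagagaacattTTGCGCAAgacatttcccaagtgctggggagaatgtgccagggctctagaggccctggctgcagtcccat
Orm3: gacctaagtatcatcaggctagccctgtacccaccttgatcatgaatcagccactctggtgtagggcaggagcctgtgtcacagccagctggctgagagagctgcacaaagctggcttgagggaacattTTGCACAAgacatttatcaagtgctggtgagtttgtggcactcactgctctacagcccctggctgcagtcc
Apcs: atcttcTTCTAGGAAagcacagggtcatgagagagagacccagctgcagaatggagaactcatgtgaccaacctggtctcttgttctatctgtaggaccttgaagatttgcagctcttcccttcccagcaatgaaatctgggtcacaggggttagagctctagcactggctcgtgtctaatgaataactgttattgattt
Over the full 250 bases before the start, Saa1 and Saa2 were 94.8% identical and Orm2 and Orm3 were 85.5% identical. RefSeq windows matched 8 of the 10 genes, all but Orm1 and Hp. TTGCNNAA on either strand was found in 7 of these 8 windows, namely those of Saa1, Saa2, Saa3, Saa4, Orm2, Orm3 and Lcn2, against 9.56% of 32851 windows of 250 bases. In Saa1 and Saa2 it began 182 and 183 bases before the start, and in Orm2 and Orm3 120 and 121 bases before it. The form TTCNNNGAA was found in 1 of the 8 windows, that of Apcs, against 7.02% of all windows. Both forms of the NF-kappaB site that were searched were found in none of the 8, against 1.41% and 1.63% of all windows. The motif letters were written after the sequences of these genes had been seen, so the counts describe the windows and support nothing further.

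Library totals ran from 17015956 to 35078511 estimated counts, so that 1 count was worth 0.0253 to 0.0516 CPM (counts scaled to a common library size, with TMM factors). Of the 10 hepatocyte markers, all passed the filter on low counts and their summed level was 114157 to 328306 CPM. Markers of other liver cells were low beside these, with sums of 35.04 to 442 CPM for 10 Kupffer cell markers and 48.4 to 599 CPM for 8 endothelial markers. Alb alone had strain means of 86601.5 CPM (CAST/EiJ) to 229352 CPM (A/J), so the sums do not measure the share of other cells. Of 10 neutrophil markers, 8 did not pass the filter, and the sum of the other two was 0 to 2.28 CPM. In RNA from many cells together, fewer cells that express a gene and less RNA per cell cannot be told apart.

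All 10 genes passed the filter, and all 10 differed among the 9 strains at an adjusted p under 0.05 in the quasi-likelihood F test of edgeR, where 74.2% of the 14482 genes tested did so. The count by itself is therefore near what genes in general gave. The strain means of the 10 genes spanned a median of 3.52 on the log2 CPM scale, against 1.16 over all genes tested. The spread among libraries of a strain was also larger, with a median SD of 0.53 on the same scale against 0.28. As the 10 genes were chosen with results of these data known, these medians are a description.

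Each gene was then tested between all 36 pairs of strains in the same fit, with p-values adjusted over all genes and pairs; these comparisons share libraries with one another. Of 360 tests on the 10 genes, 155 were called, where 23.4% of all gene-by-pair tests were. Libraries of the strains did not overlap in 209 of the 360, against 38.1% over all genes. The genes with the most called pairs were Apcs with 26 of 36, Lcn2 with 23 and Orm3 with 22, and Saa1 had the fewest with 3. When strains were ordered by mean CPM, 8 of the 80 steps between neighbours were called, so most neighbours in the orders given below did not differ beyond their spread.

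**Figure D1:**
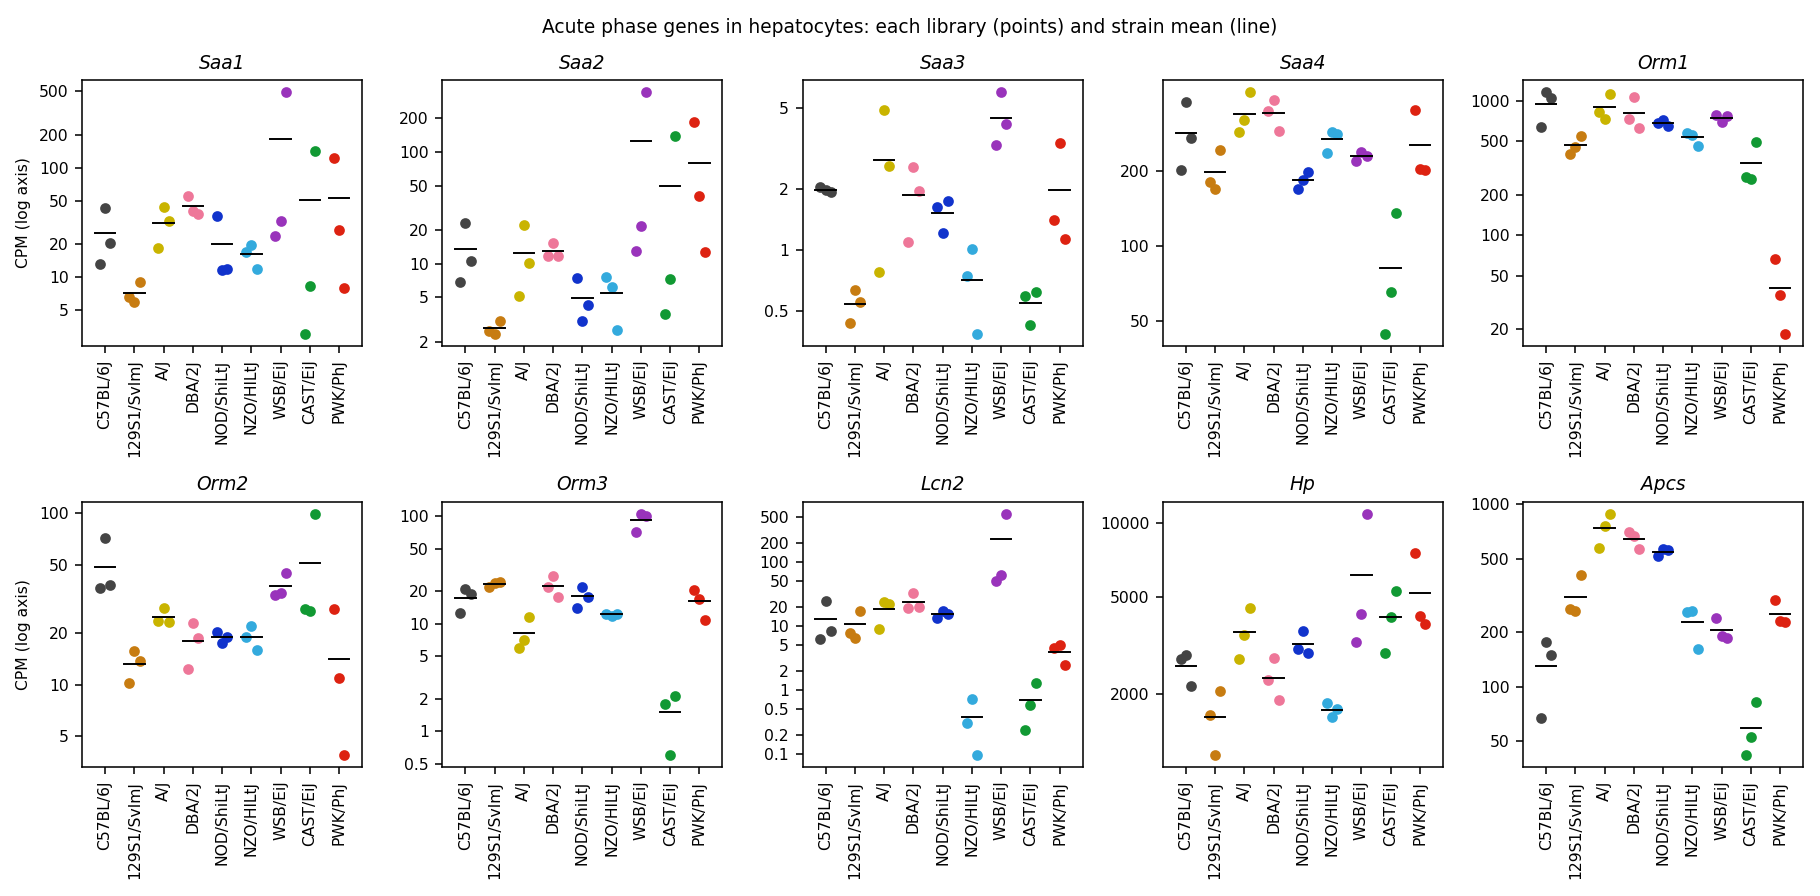
CPM of each of the 10 genes (log axes) in each of 27 libraries, by strain; points are libraries in the order of their replicate numbers and black lines are strain means of 3. In Saa1 and Saa2 a single library each of WSB/EiJ and CAST/EiJ lies far above the other two and those of PWK/PhJ are spread widely, whereas in Orm3, Orm1 and Apcs whole strains lie apart.

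Saa1 and Saa2 encode the inducible serum amyloid A proteins of plasma, which travel on high density lipoprotein. In WSB/EiJ, Saa1 stood at 23.7, 32.5 and 487 CPM in replicates 2, 3 and 4. In CAST/EiJ it stood at 3.04, 8.28 and 142 CPM in replicates 1, 4 and 5, and in PWK/PhJ at 122, 27.1 and 7.998 CPM in replicates 1, 2 and 3. So 1 library each of WSB/EiJ and CAST/EiJ was far above the other two, while those of PWK/PhJ were spread about evenly on the log2 scale with replicate 1 the highest (2.03, -0.14 and -1.89 from the strain mean), and the remaining libraries of these strains lay within or below the range of the classical strains. The lowest strain was 129S1/SvImJ, at 6.58, 5.89 and 8.93 CPM, and the other five classical strains ran from 11.7 to 55.3 CPM. Saa2 followed the same libraries. It stood at 13.1, 21.7 and 342 CPM in WSB/EiJ, at 3.55, 7.25 and 139 CPM in CAST/EiJ and at 185, 40.6 and 12.8 CPM in PWK/PhJ. In 129S1/SvImJ it was 2.48, 2.38 and 3.10 CPM, the lowest strain again, and its libraries overlapped with none of the wild-derived strains.

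The strain effect on Saa1 was the weakest of the 10 (edgeR adjusted p = 0.016). It was lost without WSB/EiJ replicate 4 (edgeR adjusted p = 0.155) and with a robust estimate of the dispersion (0.0549). When the 3 high libraries were all left out it was called (0.00165). These 3 were picked by their Saa1 and Saa2 values, and dropping them removes spread within strains. For Saa1 and Saa2, p-values without the 3 therefore do not show that an effect holds. WSB/EiJ was called higher than 129S1/SvImJ, NOD/ShiLtJ and NZO/HlLtJ, the first by a log2 fold change of 4.67 ± 1.21 (SE, edgeR adjusted p = 0.0063); without WSB/EiJ replicate 4 none of the 3 calls remained, and the first difference was 1.98. Without the 3 high libraries it was 1.99 (edgeR adjusted p = 0.0125). For Saa2 the strain effect was called over all libraries (edgeR adjusted p = 0.00074). It was also called without the 3 (edgeR adjusted p = 0.00072), with the same limit, since they were picked by Saa2 too. WSB/EiJ exceeded 6 of the 8 other strains in Saa2, but without its replicate 4 it exceeded none, and without all 3 high libraries it exceeded 3.

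Saa1 and Saa2 ranked among the genes that varied most within strains. The SD within strains on the log2 CPM scale was 1.5 for Saa1 and 1.53 for Saa2, larger than in 99.4% and 99.5% of the genes tested. Strain accounted for 36.03% of the sum of squares of Saa1 and 52.9% of that of Saa2, against a median of 66.6% over all genes tested.

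Saa3 encodes an amyloid A protein made mainly outside the hepatocyte, above all by macrophages and fat tissue in inflammation. Its level was low throughout, from 0.385 to 6.01 CPM, on 12 to 149 counts. In WSB/EiJ it stood at 3.29, 6.01 and 4.19 CPM, in 129S1/SvImJ at 0.434, 0.630 and 0.554 CPM, and in CAST/EiJ at 0.591, 0.423 and 0.619 CPM. The libraries of WSB/EiJ lay above all libraries of both other strains. WSB/EiJ exceeded 129S1/SvImJ by 3.05 ± 0.51 (log2 fold change ± SE, edgeR adjusted p = 8.4e-05). Saa3 was called lower in 129S1/SvImJ and in CAST/EiJ than in 6 other strains each. The high library of Saa1 and Saa2 was not high here: WSB/EiJ replicate 4 held 0.901 times, CAST/EiJ replicate 5 1.22 times and PWK/PhJ replicate 1 0.622 times the mean of the other libraries of the strain.

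The 3 strains with the lowest mean Saa3, 129S1/SvImJ, CAST/EiJ and NZO/HlLtJ (0.712 ± 0.315 CPM, SD, n = 3), also had the lowest summed Kupffer cell markers, at 60.5 ± 26.7, 66.0 ± 6.54 and 69.2 ± 29.7 CPM. WSB/EiJ, the highest in Saa3, had 107 ± 32.1 CPM of these markers and C57BL/6J, the highest in them, 250.1 ± 36.3 CPM. The part of these cells in the Saa3 values was not tested.

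Saa4 encodes the constitutive amyloid A protein of plasma. It varied least in WSB/EiJ, with 220.2, 239 and 231 CPM, and ran from 169.8 to 416 CPM over the 24 libraries outside CAST/EiJ. In CAST/EiJ it stood at 44.4, 65.0 and 135 CPM, below every library of the other strains. CAST/EiJ was called lower than all 8 other strains, a pattern met by 2.57% of the genes tested. Against DBA/2J, the highest strain at 352, 389 and 292 CPM, the difference was 2.08 ± 0.30 on the log2 scale (SE, edgeR adjusted p = 1.5e-05).

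The orosomucoid genes encode α1-acid glycoproteins, plasma carriers of lipophilic molecules that dampen inflammation, and their strain patterns differed from one another. Orm1 stood at 66.8, 35.9 and 18.6 CPM in PWK/PhJ, while the 24 other libraries ran from 262 to 1154 CPM with no overlap. PWK/PhJ was called lower than all 8 other strains, as 2.11% of genes were, and by 4.54 ± 0.37 on the log2 scale against C57BL/6J (SE, edgeR adjusted p = 1.4e-09), where Orm1 stood at 634, 1154 and 1041 CPM. CAST/EiJ came next from below, at 273, 262 and 494 CPM, and differed from PWK/PhJ by 3.08 ± 0.35 (edgeR adjusted p = 3.2e-07).

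Orm3 was highest in WSB/EiJ, at 71.9, 106 and 100.3 CPM, and lowest in CAST/EiJ, at 1.80, 0.604 and 2.11 CPM. The other 21 libraries ran from 5.98 to 28.1 CPM, so both strains lay clear of all the rest. WSB/EiJ was called higher than all 8 other strains, as 0.911% of genes were, and CAST/EiJ was called lower than all 8. The gap between WSB/EiJ and CAST/EiJ was 5.98 ± 0.37 (log2 fold change ± SE, edgeR adjusted p = 8.1e-12), and the step from WSB/EiJ to the next strain, 129S1/SvImJ, was 1.98 ± 0.29 (edgeR adjusted p = 1.8e-05).

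Orm2 had neither pattern. By mean CPM it was highest in CAST/EiJ, at 27.7, 26.8 and 99.0 CPM, where replicate 5 again stood apart, and by mean log2 CPM in C57BL/6J, at 36.6, 71.6 and 37.9 CPM. By mean CPM it was lowest in 129S1/SvImJ, at 10.1, 15.7 and 13.8 CPM. By mean log2 CPM it was lowest in PWK/PhJ, at 27.4, 10.9 and 3.88 CPM, where the libraries lay on both sides of those of 129S1/SvImJ and replicate 1 was the highest. C57BL/6J exceeded 129S1/SvImJ by 1.88 ± 0.48 (log2 fold change ± SE, edgeR adjusted p = 0.0055). The call of CAST/EiJ over 129S1/SvImJ (1.95 ± 0.48, edgeR adjusted p = 0.0043) was lost without CAST/EiJ replicate 5 (1.05, edgeR adjusted p = 0.087).

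**Figure D2:**
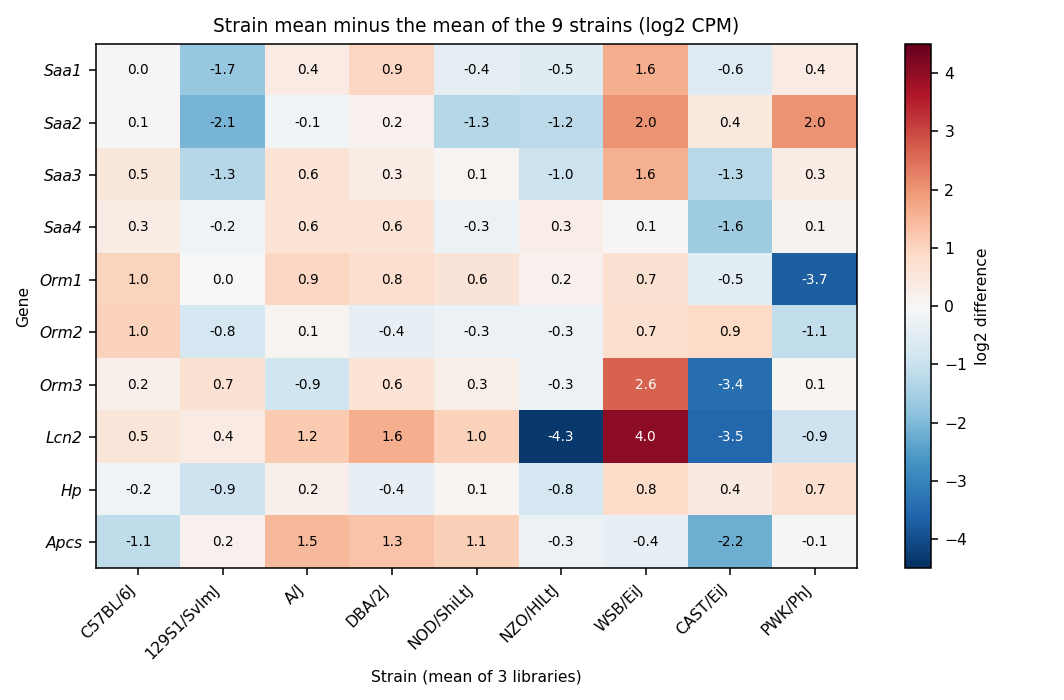
Mean log2 CPM of each strain minus the mean of the 9 strains, for each gene (rows) and strain (columns, 3 libraries each); red is above and blue below the mean. Strains take different places in different genes: CAST/EiJ is lowest in Saa4, Orm3 and Apcs, PWK/PhJ in Orm1 and NZO/HlLtJ in Lcn2, and WSB/EiJ is highest in Orm3 and Lcn2.

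Because reads from close copies can be divided between them, the shares within each family were also taken. Transcript lengths were alike (609 and 606 bases for Saa1 and Saa2; 775, 775 and 773 for Orm1, Orm2 and Orm3), so the shares of counts stand for levels per length. Estimated counts were not whole in all 27 libraries for Orm1 and Orm2, in 17 for Saa1 and Saa2, in 14 for Orm3 and in 0 for Saa3, Saa4, Lcn2, Hp and Apcs. Saa2 made up 60.6% ± 0.865 (SD, n = 3) of Saa1 plus Saa2 in PWK/PhJ, 50.05% ± 3.6 in CAST/EiJ and 39.0% ± 2.91 in WSB/EiJ. In the classical strains it made up 21.5% to 34.7% on average, with single libraries from 16.9% to 35.2%. PWK/PhJ and CAST/EiJ libraries therefore lay above all others in this share, although their summed level of both genes varied widely, from 20.8 to 308 CPM in PWK/PhJ and from 6.59 to 281 CPM in CAST/EiJ.

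In PWK/PhJ, Orm1 made up 56.7% ± 1.28 (SD, n = 3) of the 3 orosomucoid genes, against strain means of 85.2% to 96.3% elsewhere. Orm3 made up 25.8% ± 7.40 in PWK/PhJ and 10.6% ± 2.32 in WSB/EiJ, and 0.387% ± 0.196 in CAST/EiJ. The summed level of the 3 genes was 70.7 ± 41.2 CPM in PWK/PhJ and 289 to 1247 CPM in the libraries of the other strains. When the families were summed and refitted, the strain effect was called for both sums (edgeR adjusted p = 0.0059 for Saa1 plus Saa2 and 3e-07 for the 3 Orm genes). The submitters' processing notes name the builds GRCm38 and mm10, and whether genomes of the single strains were used is not given in the sources used here. The part of the genome used in these shares and in the low Orm1 of PWK/PhJ was not tested.

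**Figure D3:**
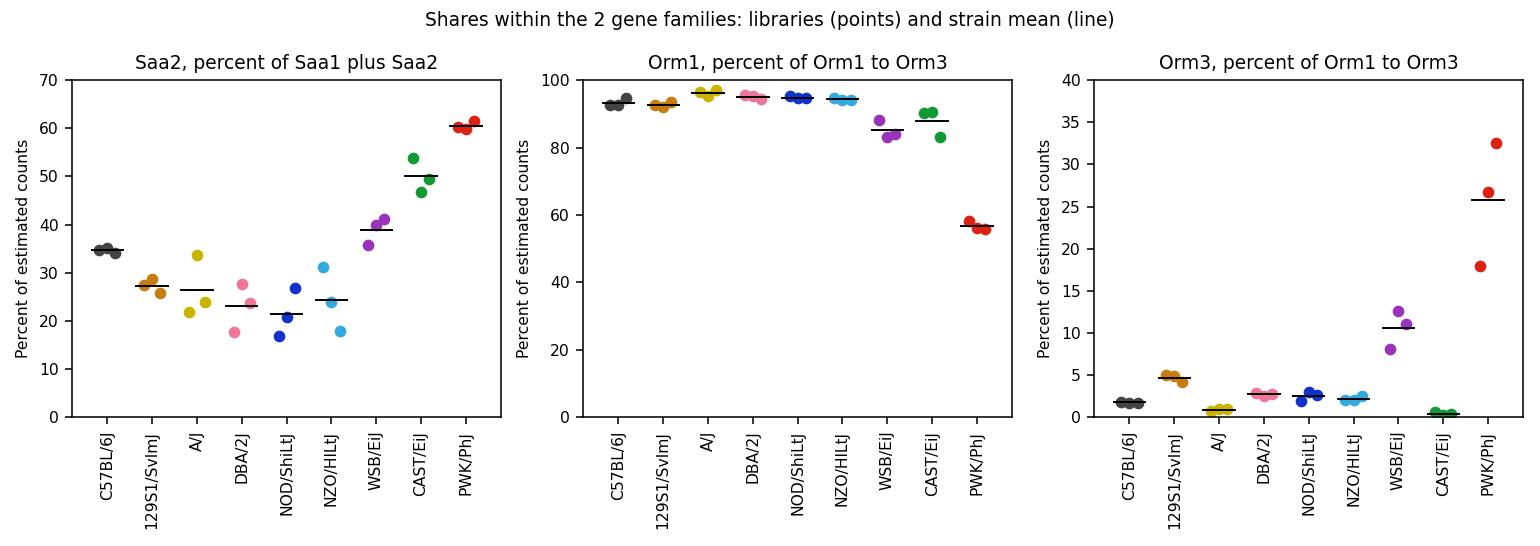
Share of estimated counts within a family, in percent, by strain: Saa2 of Saa1 plus Saa2 (left), Orm1 (middle) and Orm3 (right) of Orm1, Orm2 and Orm3; points are libraries and lines are means of 3. The Saa2 share is steady within PWK/PhJ (59.96% to 61.6%) and the Orm1 share of PWK/PhJ (55.8% to 58.2%) lies below that of every other library.

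Lcn2 encodes lipocalin 2, a secreted protein that binds bacterial siderophores and so withholds iron. In WSB/EiJ it stood at 50.8, 63.4 and 571 CPM. In NZO/HlLtJ it stood at 0.306, 0.734 and 0.0962 CPM, on 12, 29 and 3 counts, and in CAST/EiJ at 0.236, 0.574 and 1.29 CPM, on 8, 19 and 25 counts. All libraries of WSB/EiJ lay above every other library, those of NZO/HlLtJ and CAST/EiJ lay below every other, and these low strains overlapped with each other. In between, PWK/PhJ stood at 4.55, 4.98 and 2.42 CPM and the other five strains ran from 6.22 to 32.7 CPM.

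The strain range of Lcn2 was the widest of the 10 genes. The mean of WSB/EiJ was 603-fold that of NZO/HlLtJ, and the fitted log2 fold change was 9.16 ± 0.99 (SE, edgeR adjusted p = 1.6e-07); without the 3 high libraries it was 7.15. WSB/EiJ was called higher than all 8 other strains (0.911% of genes were). Without its replicate 4 it was called higher than 7 of 8. NZO/HlLtJ and CAST/EiJ were each called lower than the 7 strains other than each other, and the difference between them was -0.68 ± 1.11 (NZO/HlLtJ minus CAST/EiJ, edgeR adjusted p = 0.71). The range of the strain means of Lcn2 was wider than that of 99.3% of the genes tested.

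Hp encodes haptoglobin, which binds free haemoglobin. It varied less, by 3.83-fold between the means of the highest and the lowest strain. It stood at 1645.7, 1124.1 and 2045.4 CPM in 129S1/SvImJ, at 3265.9, 4260.7 and 10917.9 CPM in WSB/EiJ and at 7566.5, 4151.1 and 3855.3 CPM in PWK/PhJ. The libraries of 129S1/SvImJ lay below those of both, and WSB/EiJ replicate 4 and PWK/PhJ replicate 1 were again the highest of their strains. WSB/EiJ exceeded 129S1/SvImJ by 1.94 ± 0.35 (log2 fold change ± SE, edgeR adjusted p = 0.00024). WSB/EiJ was called higher than 5 strains, and than 2 without its replicate 4; PWK/PhJ was called higher than 4, and than 2 without its replicate 1. Without the 3 high libraries WSB/EiJ exceeded 129S1/SvImJ by 1.24 (edgeR adjusted p = 0.001).

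Apcs encodes serum amyloid P component, a pentraxin of plasma that binds amyloid fibrils. The strains fell on several levels. A/J stood at 575, 765 and 889 CPM, DBA/2J at 708, 670 and 568 CPM and NOD/ShiLtJ at 519.99, 572 and 561 CPM. C57BL/6J stood at 66.8, 175 and 149 CPM, and CAST/EiJ at 42.1, 53.0 and 81.9 CPM. The 12 libraries of 129S1/SvImJ, NZO/HlLtJ, WSB/EiJ and PWK/PhJ ran from 161 to 408 CPM, below all libraries of the 3 high strains. A/J, DBA/2J and NOD/ShiLtJ were each called higher than the 6 other strains. CAST/EiJ was called lower than all 8 (2.57% of genes were), and its difference from A/J was 3.66 ± 0.31 (log2 fold change ± SE, edgeR adjusted p = 3.1e-09). A/J exceeded C57BL/6J by 2.51 ± 0.30 (edgeR adjusted p = 7e-07).

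Among the libraries of single strains, 3 held the most Saa1 and Saa2 by a wide margin: WSB/EiJ replicate 4, CAST/EiJ replicate 5 and PWK/PhJ replicate 1, the last in a strain whose replicate 3 was about as far below the mean. They were singled out after their values were seen. Saa1 was 17.3-fold, 25.0-fold and 6.96-fold above the mean of the other two libraries of the strain, and Saa2 19.6-fold, 25.8-fold and 6.94-fold. Among genes with at least 10 CPM on average and in the library, passing over predicted genes and pseudogenes, Saa1 and Saa2 were the genes with the largest such folds in all 3 libraries.

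The other genes did not move alike in the 3 libraries. In WSB/EiJ replicate 4, Lcn2 was 9.996-fold and Hp 2.90-fold above the other libraries, while Saa4 (1.01-fold), Orm1 (1.03-fold), Orm3 (1.13-fold) and Apcs (0.862-fold) stood near them. In CAST/EiJ replicate 5, Orm2 was 3.63-fold, Lcn2 3.18-fold and Saa4 2.48-fold above, and all 10 genes were highest of the strain in that library, where 30.0% of genes with a mean of at least 10 CPM were. In PWK/PhJ replicate 1, Orm2 was 3.72-fold and Orm1 2.45-fold above, Lcn2 was 1.23-fold above, and 8 of the 10 genes were the highest of the strain (37.8% of genes were). In WSB/EiJ replicate 4, 5 of the 10 were (41.6% of genes). Being highest in most of the 10 was not limited to these libraries, since C57BL/6J replicate 2 was highest of its strain in 9 of the 10 (23.0% of genes), and 129S1/SvImJ replicate 3 and DBA/2J replicate 3 in 8 each (36.1% and 31.3% of genes). PWK/PhJ replicate 3 was the lowest of its strain in all 10 (33.4% of genes), and C57BL/6J replicate 1, A/J replicate 1 and WSB/EiJ replicate 2 were the lowest in 8 each (36.8%, 30.9% and 31.8% of genes).

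PWK/PhJ replicate 1 also held the highest summed markers of the 27 libraries in 6 of 7 lists for other cells, those of Kupffer cells, endothelial cells, stellate cells, neutrophils, adipocytes and lymphocytes (the last a single gene that passed the filter). The Kupffer cell markers stood at 442 CPM there against 150.4 and 151.5 CPM in replicates 2 and 3, and the endothelial markers at 599 against 180.2 and 218 CPM. The exception was the cholangiocyte list, at 3.63 against 6.08 and 5.31 CPM. In WSB/EiJ replicate 4 the Kupffer cell markers stood at 74.9 CPM against 108 and 139 CPM, and in CAST/EiJ replicate 5 at 59.4 against 66.0 and 72.5 CPM, the lowest library of its strain in both. WSB/EiJ replicate 4 was also the lowest of its strain in the endothelial, stellate, adipocyte, cholangiocyte and lymphocyte lists. Its endothelial markers stood at 95.89 against 108.87 and 126.73 CPM. In CAST/EiJ replicate 5 other lists were the highest of the strain, with endothelial markers at 132.9 against 49.9 and 126.1 CPM, stellate cell markers at 46.6 against 19.2 and 45.3 CPM and adipocyte markers at 2.17 against 0.680 and 1.54 CPM. The summed markers of neutrophils, cells that store lipocalin 2, stood at 0.322 CPM in WSB/EiJ replicate 4 against 1.90 and 0.686 CPM in replicates 2 and 3, and at 2.28 CPM in PWK/PhJ replicate 1 against 0.722 and 0.962 CPM. The part of other cells in the high Saa1 and Saa2 was not tested in any of the 3 libraries.

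**Figure D4:**
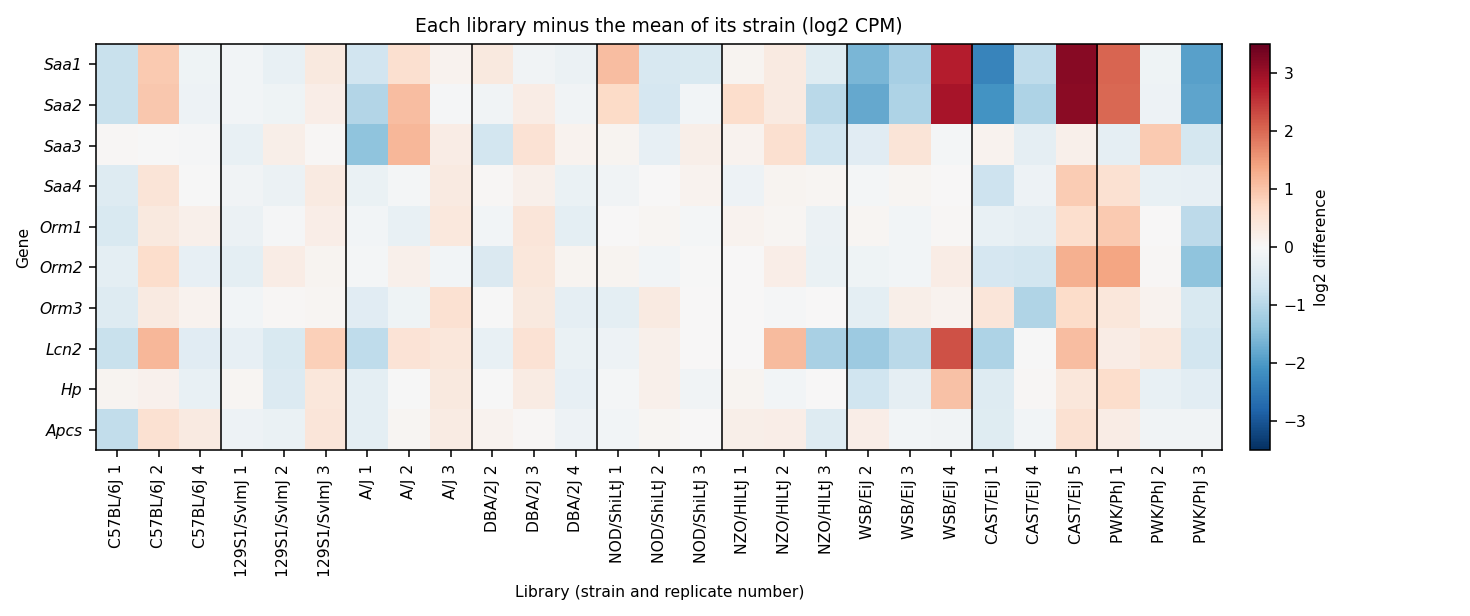
Log2 CPM of each library minus the mean of its strain, for each gene (rows) and library (columns, strain and replicate number; black lines part the strains). WSB/EiJ 4, CAST/EiJ 5 and PWK/PhJ 1 are red in Saa1 and Saa2, and PWK/PhJ 3 is blue in all 10 genes.

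To see which genes moved together apart from strain, each library's difference from its strain mean was correlated between genes over the 27 libraries, with two-sided permutation of libraries within strains and adjustment over the 45 pairs of genes. All 45 Pearson correlations were positive, with a median of 0.528, and 26 were called (25 by Spearman's rho as well). As a description, 24 of the 45 were above 0.5, where 7.06% of all pairs of genes tested were, and 15.5% of pairs of genes with a mean of at least 10 CPM, whose median was 0.0144. Saa1 and Saa2 were the closest (r = 0.978, rho = 0.951, permutation p = 1e-05, which is the smallest that the draws can give, and adjusted permutation p = 0.00045). Without the 2 libraries farthest from the median of Saa1 the correlation was 0.958, with strain means that still included those 2. Without the 3 high libraries, with strain means taken over the rest, it was 0.884 (adjusted permutation p = 0.0045). Reads that match both genes were divided between them, and the part of this in their correlation was not tested.

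Lcn2 moved with both, with r = 0.762 with Saa1 (rho = 0.771, adjusted permutation p = 0.0029) and r = 0.802 with Saa2 (rho = 0.815, adjusted permutation p = 0.0029). Without the 3 high libraries these were 0.668 and 0.762, and both were still called. Hp gave r = 0.760 with Saa1 (rho = 0.668, adjusted permutation p = 0.0071). It gave 0.673 without CAST/EiJ replicate 5 and WSB/EiJ replicate 4, the 2 libraries farthest from the median of Saa1 (adjusted permutation p = 0.0394). The strain means behind that value still included these 2 libraries, so their influence was not removed. Without all 3 libraries, with strain means taken over the rest, the correlation of Hp with Saa1 was 0.357 and no longer called (adjusted permutation p = 0.196). Orm2 gave r = 0.788 with Saa2 (rho = 0.786, adjusted permutation p = 0.0014), and 0.663 without the 3.

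Among the other genes, Saa4 and Apcs gave r = 0.758 (rho = 0.719, adjusted permutation p = 0.0049) and 0.741 without the 3 libraries. Orm1 and Apcs gave r = 0.676 (rho = 0.771, adjusted permutation p = 0.0046) and 0.659 without them. Other calls were lost without the 3 libraries. Orm1 and Orm2 went from r = 0.841 (adjusted permutation p = 0.0119) to 0.652 (adjusted permutation p = 0.196). Saa4 and Orm1 went from r = 0.758 (adjusted permutation p = 0.00575) to 0.581 (adjusted permutation p = 0.0511). Saa3 was not called with any of the other genes over the 27 libraries, with r from 0.0622 to 0.386. Without the 3 libraries it was called with Saa2 (r = 0.711, adjusted permutation p = 0.0403) and Orm2 (r = 0.602, adjusted permutation p = 0.00967), so the lack of calls for Saa3 depends on those libraries. Over all 45 pairs, 12 were called without the 3 libraries, 44 were positive and the median was 0.474.

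**Figure D5:**
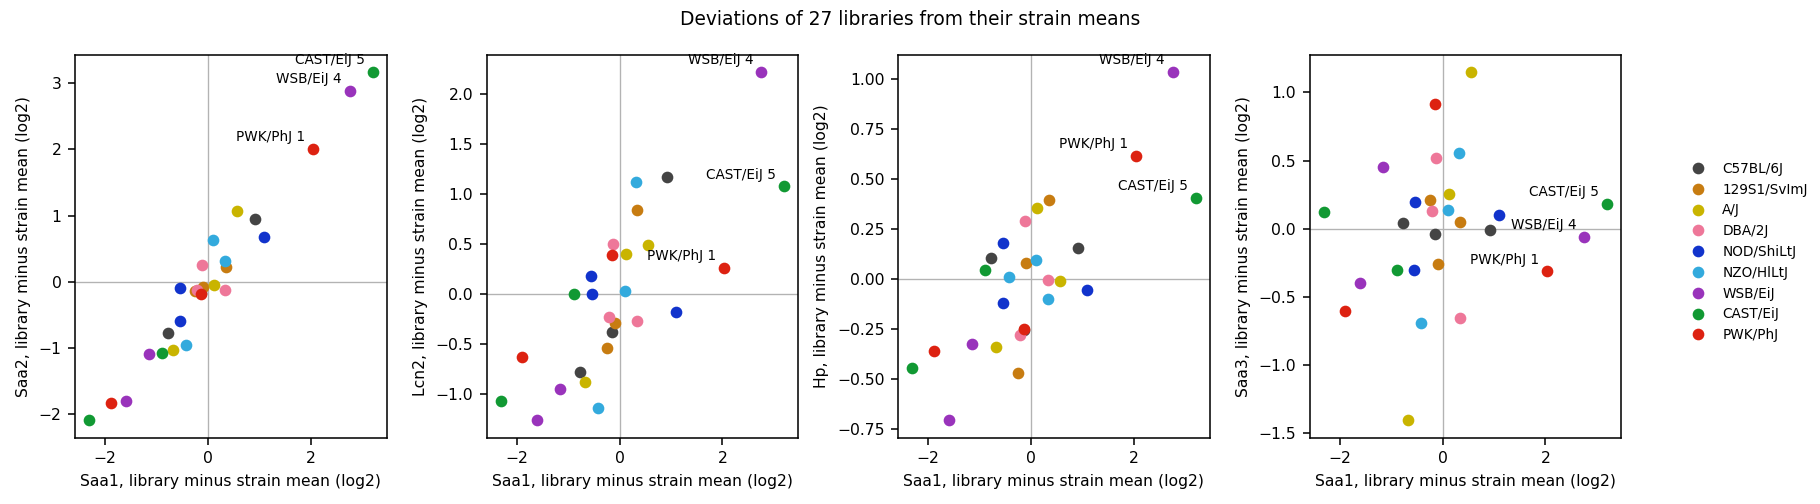
Log2 CPM of each library minus the mean of its strain, for Saa1 (x axes) against Saa2, Lcn2, Hp and Saa3 (y axes); each point is 1 of 27 libraries, coloured by strain, and the 3 high libraries are named. Saa2 follows Saa1 along the whole range (r = 0.978), and for Saa3 r was 0.169 (0.448 without the 3 named libraries).

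Outside the 10 genes, those whose levels over the 27 libraries were most like a member were taken among 6097 candidates with at least 10 CPM on average, as a description. The nearest included BC017158 (r = 0.977) and Cyp4f14 (0.967) for Orm1, and Tmem19 (0.878) for Apcs. Libraries of a strain are not independent points for such a measure. For differences from the strain mean, the nearest genes included Lrg1, which encodes a leucine-rich glycoprotein of the acute phase, for Saa1 (r = 0.741) and Saa2 (0.745), after Lmbr1l (0.770 and 0.759). Itih4, an inter-alpha-trypsin inhibitor chain, was nearest to Orm1 (0.889), and Serpina10 to Saa4 (0.893) and Apcs (0.864).

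Other genes of the response were read from the same fit, in lists written with earlier results of these data known. Of 16 other positive acute phase genes, 16 were called for a strain effect (74.2% of all genes were), with Hamp, which encodes the iron hormone hepcidin, the largest F and Lrg1 the smallest. Hamp stood at 1184 ± 229 CPM (SD, n = 3) in NOD/ShiLtJ and 116 ± 19.5 CPM in NZO/HlLtJ (edgeR adjusted p = 3.3e-07). The strain means of this list spanned a median of 1.29 on the log2 scale, against 3.52 for the 10 members and 1.16 for all genes. Of 8 negative acute phase genes, 7 were called, led by the retinol carrier Rbp4, at 4324 ± 693 CPM in WSB/EiJ and 1644 ± 250 CPM in CAST/EiJ (edgeR adjusted p = 2.7e-05).

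Among the upstream genes, all 8 cytokine receptor genes were called, against 74.2% of all genes for this and the counts that follow, with the largest F in Il1r1, the interleukin 1 receptor, at 34.8 ± 8.12 CPM in A/J and 6.65 ± 1.48 CPM in NZO/HlLtJ (edgeR adjusted p = 4.6e-07). Of 10 transcription factor genes, 6 were called, with Stat3 at 141 ± 30.5 CPM in CAST/EiJ and 71.6 ± 7.28 CPM in NOD/ShiLtJ (edgeR adjusted p = 0.00026), and Cebpd was not (edgeR adjusted p = 0.56). Of 4 feedback inhibitors tested, 1 was called, Bcl3 (edgeR adjusted p = 0.00046), and the smallest F was that of Tnfaip3. Of 7 inducing cytokines, Il6, Tnf, Osm, Lif and Il22 did not pass the filter, and Il1a and Il1b, both called, summed to at most 4.87 CPM, in PWK/PhJ replicate 1. In the 3 high libraries, Socs3, an inhibitor of STAT3 signalling, was 0.705-fold (WSB/EiJ), 1.06-fold (CAST/EiJ) and 2.80-fold (PWK/PhJ) the mean of the other libraries of the strain, and Lrg1 was 1.72-fold, 2.05-fold and 2.49-fold; Socs3 and Lrg1 were chosen after their values were seen. Of the 16 other positive acute phase genes, 10 stood below the mean of the other libraries of the strain in WSB/EiJ replicate 4, from Cd14 (0.258-fold) to Cp (0.876-fold), with C3 at 0.542-fold and the fibrinogen genes Fga, Fgb and Fgg at 0.623-fold, 0.630-fold and 0.664-fold. Their summed level there was 44905.6 CPM against 63562.1 and 62196.6 CPM in replicates 2 and 3. In CAST/EiJ replicate 5 and in PWK/PhJ replicate 1, 15 of the 16 stood above it. Of the 8 negative acute phase genes, 5 stood above it in WSB/EiJ replicate 4 and 2 in CAST/EiJ replicate 5. In PWK/PhJ replicate 1 all 8 stood above it, by 1.26-fold (Apoa1) to 1.59-fold (Igfals).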

How the data were processed

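Polyadenylated RNA was sequenced with a TruSeq kit, per the labels' protocols. The deposited table holds estimated counts (expected counts) per Ensembl gene, as the authors made them. The submitters' processing notes name FastQC 0.11.5, DESeq2 and the builds GRCm38 and mm10; the aligner and the counting program are not given in the sources used here. Of the values, 11.1% differed from a whole number by more than 1e-06. Symbols came from GENCODE M21, which named 42462 of 43346 IDs.

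Counts were rounded. Genes were kept with filterByExpr (14482), library sizes were scaled with TMM (factors 0.722 to 1.226), and a quasi-likelihood model with strain as the only factor was fitted to all 27 libraries in R 4.3.3 with edgeR 4.0.16. The strain effect was adjusted by Benjamini and Hochberg over genes, the pair tests over genes and pairs, with calls under 0.05. The procedure was tested on simulated counts. The edgeR p-values set differences between strains against the spread between libraries of a strain, estimated over all 27 libraries. CPM use TMM-scaled library sizes, and log2 CPM a prior count of 2. Correlations used 100000 permutations.

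The 10 members, the lists and the rule for other genes (for each member, the 2 most correlated genes by level and by deviation; of each list, the genes with the largest and smallest F) were chosen with earlier results of these data known. Alternatives were DESeq2 1.42.0, its size factors, other filters, the replicate number as a block, each library left out, pairs of strains fitted alone, family sums and prior counts of 0.5 and 5; leaving out 3 libraries together and robust dispersion were chosen after the data were seen.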

Additional observations from a re-analysis of the deposited data

How the results depend on the processing

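The strain effect was called for all 10 members with DESeq2, median-of-ratios size factors, a mean count of 10 or more, no filter and the replicate block. All 10 were also called without the 3 high libraries, but these were picked by their Saa1 and Saa2 values, so for those genes this setting is no check. The exception among the settings was Saa1, with an adjusted p of 0.0549 with robust dispersion and of 0.000858 to 0.155 when each library was left out in turn, so that 9 to 10 members were called. Of the 360 pair tests, 139 to 160 were called without a library, 162 with DESeq2, 174 with no filter and 140 with robust dispersion. Same-numbered libraries of different strains had a median correlation of 0.0232 over 76 pairs, against -0.00458 over 248 other pairs. Of the 76, 17 were over 0.1, and this count was not taken for the other pairs. Such medians cannot decide whether the numbers pair the samples, because a link limited to some genes or some strains could leave them near 0. With the replicate block, 141 pair tests were called, CAST/EiJ against 129S1/SvImJ in Orm2 was not (log2 fold change 0.98, edgeR adjusted p = 0.177), Saa3 of CAST/EiJ was called lower than 3 strains in place of 6, and 2 feedback inhibitors were called in place of 1; the cause was not tested. No called result reversed its direction among the alternatives run; of the correlations that were not called, Saa1 with Orm3 went from 0.402 to -0.00303 without the 3 high libraries and Saa3 with Hp from 0.0656 to -0.0401 without the 2 farthest. Depth limits Saa3 and the low strains of Lcn2, which rest on few counts.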
